A study of Mus musculus with 8 samples.

Results

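PDX1 peaks at the ends of genes were taken from chromatin immunoprecipitation followed by sequencing (ChIP-seq) in Beta-TC6, a mouse insulinoma line that serves as a model of the insulin-secreting beta cell. A PDX1 peak was counted when its centre lay within 1 kb of either end of a RefSeq protein-coding gene, and 742 of the 34883 peaks in the deposited PDX1 list did so, against 34141 that lay farther away. All 6 ChIP libraries (PDX1, H3K27ac, H3K4me2, H2A.Z, CLOCK and BMAL1) and the 2 input libraries came from cells of this 1 line grown to confluence and fixed with a protein crosslinker and formaldehyde. Each target had 1 library, so every test below compares peaks of these libraries, and peaks are not replicates.

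PDX1 is a homeodomain transcription factor that is needed for the pancreas to form and for adult beta cells to keep transcribing insulin. Its homeodomain recognises short A/T-rich elements with a TAAT core, and the promoters of the insulin and islet amyloid polypeptide genes are its textbook targets. H3K27ac marks active promoters and enhancers, H3K4me2 marks both classes of element more broadly, and the histone variant H2A.Z sits in nucleosomes that flank many transcription starts.

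The PDX1 library held 19568242 tags, of which 4.32% lay in peaks, and the other 5 ChIP libraries held between 12892080 (BMAL1) and 26678241 tags (H3K4me2). The chromatin of the cells carried the marks of the labelled cell type. H3K27ac lay within 1 kb of a gene end at 12 of 12 beta-cell markers, at 2 of 5 alpha-cell markers (Gcg and Ttr) and at 1 of 3 immune markers (Cd68). It lay at 0 of 3 delta-cell, 0 of 6 acinar, 0 of 4 ductal, 0 of 4 fibroblast and 0 of 3 endothelial markers, and not at the PP-cell marker Ppy. Over all 21887 protein-coding genes the share was 39.95%. The authors' PDX1 score roughly counts the tags of a peak, and a peak needed 13 tags, 4 times the input and 4 times the surrounding 10 kb to be listed.

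The DNA under some of these peaks can be read directly, because RefSeq promoter windows (250 bases before to 50 bases after a transcription start, GRCm38.p6) were at hand for 17492 genes. Of 21263 windows, 76 shared at least 100 bases with a gene-end PDX1 peak. The stretches printed here are the bases that a peak and a promoter window share, 5′ to 3′ on the strand of the gene, and capitals mark every TAAT or ATTA, the homeodomain core on either strand, including the palindrome TAATTA. Iapp is shown because its promoter peak scored 94, the highest among the 76 windows (chr6:142298198-142298432, plus strand). Akr1c19 (chr13:4233514-4233748, plus strand), Akr1c12 (chr13:4279459-4279649, minus strand) and Akr1c13 (chr13:4190937-4191130, plus strand) are shown because neighbouring aldo-keto reductase genes carried peaks at the same place in their promoters. Tmem260 (chr14:48445873-48445997, plus strand), Alkbh5 (chr11:60537433-60537664, plus strand) and Cdkal1 (chr13:29855643-29855877, minus strand) are shown as stretches that hold TAATTA.
Iapp: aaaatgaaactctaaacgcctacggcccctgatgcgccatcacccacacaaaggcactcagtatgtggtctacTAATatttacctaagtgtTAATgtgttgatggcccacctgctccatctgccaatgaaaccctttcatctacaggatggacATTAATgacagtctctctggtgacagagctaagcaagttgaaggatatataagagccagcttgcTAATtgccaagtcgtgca
Akr1c19: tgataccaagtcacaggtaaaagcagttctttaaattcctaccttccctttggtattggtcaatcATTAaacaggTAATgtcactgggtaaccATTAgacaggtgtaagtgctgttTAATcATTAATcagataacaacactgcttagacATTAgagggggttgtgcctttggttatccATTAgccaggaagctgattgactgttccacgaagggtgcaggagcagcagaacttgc
Akr1c12: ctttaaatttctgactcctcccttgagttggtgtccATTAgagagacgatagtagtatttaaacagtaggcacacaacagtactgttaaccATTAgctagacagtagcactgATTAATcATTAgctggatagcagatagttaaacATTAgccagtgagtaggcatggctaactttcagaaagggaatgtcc
Akr1c13: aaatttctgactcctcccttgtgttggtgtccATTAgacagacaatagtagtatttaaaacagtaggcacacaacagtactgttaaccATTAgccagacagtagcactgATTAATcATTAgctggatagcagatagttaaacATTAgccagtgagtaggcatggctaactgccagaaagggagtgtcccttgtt
Tmem260: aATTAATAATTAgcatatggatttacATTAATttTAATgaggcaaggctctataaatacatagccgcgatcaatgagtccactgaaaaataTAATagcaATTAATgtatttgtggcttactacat
Alkbh5: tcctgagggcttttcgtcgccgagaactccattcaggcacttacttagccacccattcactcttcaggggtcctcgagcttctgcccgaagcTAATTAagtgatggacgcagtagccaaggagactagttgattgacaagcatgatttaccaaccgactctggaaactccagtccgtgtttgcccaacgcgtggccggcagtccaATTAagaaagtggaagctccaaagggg
Cdkal1: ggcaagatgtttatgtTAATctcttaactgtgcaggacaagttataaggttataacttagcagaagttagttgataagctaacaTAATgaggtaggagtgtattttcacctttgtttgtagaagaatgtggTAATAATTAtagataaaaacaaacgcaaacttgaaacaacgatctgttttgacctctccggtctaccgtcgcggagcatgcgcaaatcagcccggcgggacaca
The Iapp stretch held 5 TAAT or ATTA cores, the Akr1c19 stretch 8, and those of Akr1c12 and Akr1c13 held 6 each, all without TAATTA. The Akr1c12 and Akr1c13 stretches were identical at 180 of 187 aligned bases, with 7 mismatches and 1 gap base, so reads from these near-identical copies may have been placed at either gene. Tmem260 held 10 cores in 125 bases, at a G+C content of 28.8%. Overlapping matches were each counted, and these core counts were not compared with other DNA.

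The palindrome TAATTA, searched as these letters on both strands, was present in 29 of the 76 windows with a gene-end PDX1 peak (38.2%), against 935 of the other 21187 windows (4.41%) and 4.53% of all windows. It sat under the peaks themselves. Taking 1 window for each of the 67 peaks concerned, the bases inside the peaks held 30 TAATTA in 12447 bases, or 2.41 per kb. The rest of the same windows held 1 in 7653 bases, or 0.131 per kb, and all other windows held 0.163 per kb. Of the 30 copies, 25 lay within 50 bp of the peak centre (83.3%), with a median distance of 19 bp.

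Windows under PDX1 peaks were less rich in G and C than the other windows, with a median of 50.3% against 56.3%, and TAATTA is rarer in G+C-rich DNA. Within windows under 45% G+C, TAATTA was in 13 of 23 windows with a peak (56.5%) and in 14.8% of 3578 others. Between 45% and 55% G+C it was in 12 of 33 (36.4%) and in 4.79% of 5892 others. At 55% G+C or more it was in 4 of 20 (20%) and in 1.07% of 11717 others. The share was thus higher under peaks in each of these 3 classes, as the plot of motif shares by G+C content shows.

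**Figure D1:**
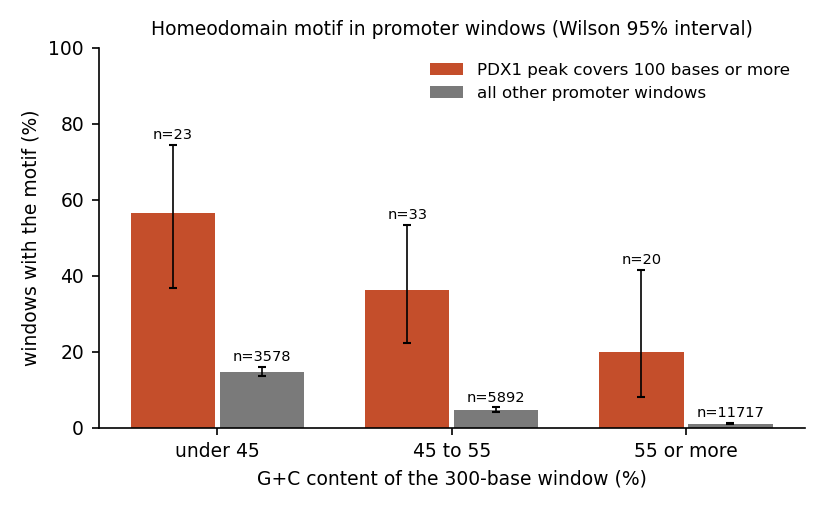
Share of 300-base promoter windows that hold TAATTA (vertical axis, %) in 3 classes of G+C content (horizontal axis), for windows in which a gene-end PDX1 peak covers 100 bases or more and for all other windows; error bars are Wilson 95% intervals and n is the number of windows. Shares under peaks were 56.5%, 36.4% and 20%, against 14.8%, 4.79% and 1.07% in the other windows. The 76 windows with a peak came from 67 peaks, so some share a peak, and the intervals treat windows as independent.

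Other short elements were counted in the same windows. The PBX-HOX type element TGATTGAT, searched on both strands, was in 0 of the 76 windows and in 0.618% of the others. At that share, 76 windows hold few or none. Only this spelling was counted. TGATTAAT was not, though the Akr1c12 and Akr1c13 stretches above hold it, and that of Akr1c19 holds it on the other strand. The E-box CACGTG, the element that CLOCK and BMAL1 recognise, was in 10 of the 76 windows with a peak (13.2%) and in 7.82% of the others. TATAAA was in 14.5% and 12.6%. These shares were not tested and were not split by G+C content, and some of the 76 windows share a peak. Of the 67 peaks, 25 had TAATTA in the shared bases, with a median score of 24, and 42 had none, with a median score of 19.5. H3K27ac covered 12 of those 25 peaks and 28 of those 42. A match describes letters in these windows only, and shows no binding site.

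Fewer peaks lay just inside gene starts than just outside them. A start here is the outer 5′ edge of the RefSeq gene span, and annotated transcription starts can lie elsewhere in the span. For the start peak at Sema3a, the nearest annotated transcription start was 272654 bp away. Sides relative to annotated transcription starts were not counted. The strand of the nearest gene was known for 590 of the 742, of which 370 were nearest to a start (5′ end) and 220 to a 3′ end; for the other 152 the end could not be assigned. At starts, 240 centres lay outside the gene and 130 inside. The bins of 250 bp held 62 and 69 peaks in the first and second bin before the start, against 25 and 24 in the first and second bin after it, and 35 and 46 in the following bins inside the gene. At 3′ ends no such step was seen, with 103 centres outside and 117 inside, and 22 against 36 in the bins on either side of the end. Position was not tested against a null.

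**Figure D2:**
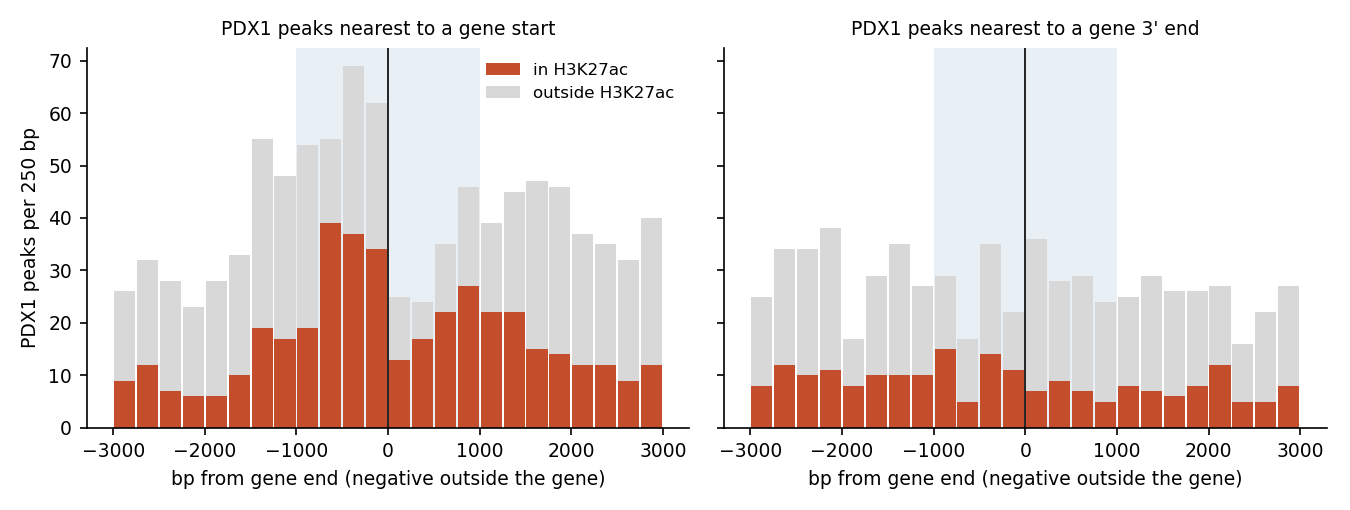
Number of PDX1 peaks per 250 bp (vertical axis) by the distance of their centre from the nearest gene start (left) or 3′ end (right), in bp, negative outside the gene; the shaded band is the 1 kb limit, and the coloured part of each bar lies in H3K27ac. At starts the 2 bins before the start hold 69 and 62 peaks and the 2 bins after it 25 and 24. Starts and 3′ ends are the outer edges of the gene spans.

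The 742 peaks were centred within 1 kb of an end of 772 genes, 3.53% of protein-coding genes, and 722 different genes were nearest to them. Ends of 2 or more genes lay within 1 kb of 53 peaks, and 30 peaks had 2 or more starts in reach. Only 20 genes had 2 peaks, among them Adra2a, which encodes the alpha-2A adrenergic receptor that restrains insulin release, with scores of 38 and 37 inside the gene, 910 and 331 bp from its 3′ end. Another PDX1 peak lay within 5 kb of 74 gene-end peaks (9.97%), against 5757 of the others (16.9%). Just inside the limit, the 39 peaks at 950 to 1000 bp had a median score of 19 and 53.9% lay in H3K27ac, against 18.5 and 44.1% for the 34 peaks at 1000 to 1050 bp.

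Gene-end PDX1 peaks lay in marked chromatin more often than the other PDX1 peaks. H3K27ac covered 351 of 742 (47.3%), against 7016 of 34141 others (20.6%) and 21.1% of all PDX1 peaks (odds ratio 3.47, 95% interval 2.998 to 4.02, adjusted p = 1.65e-57, two-sided Fisher exact test, Benjamini-Hochberg over 11 tests). H3K4me2 covered 397 (53.5%), against 23.0% of the others and 23.6% of all (odds ratio 3.86, 3.33 to 4.47, adjusted p = 7.16e-70, same exact test). H2A.Z covered 97 (13.1%), against 2.91% of the others and 3.12% of all (odds ratio 5.03, 4.02 to 6.28, adjusted p = 8.96e-33, same exact test). Over all genes, with or without a PDX1 peak, 39.95% had H3K27ac within 1 kb of an end, as given above. That share counts genes by either end, whereas 47.3% counts peaks that overlap the mark, so these are unlike measures. Gene ends with and without a PDX1 peak were not compared for the mark.

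The marks combined in several ways. H3K27ac and H3K4me2 lay together at 274 gene-end peaks (36.9%), against 14.3% of the other PDX1 peaks. H3K4me2 without H3K27ac was at 123 (16.6%, against 8.68%) and H3K27ac without H3K4me2 at 77 (10.4%, against 6.26%). All 3 marks met at 58 (7.82%, against 1.24%). None of the 3 was detectable at 265 gene-end peaks (35.7%), against 69.9% of the others.

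Starts and 3′ ends differed. H3K4me2 covered 259 of the 370 start peaks (70.0%) and 52 of the 220 peaks at 3′ ends (23.6%), an odds ratio of 7.54 (5.14 to 11.1, adjusted p = 3.37e-28, Fisher exact test in the same family). H3K27ac covered 208 start peaks (56.2%) and 73 at 3′ ends (33.2%), an odds ratio of 2.59 (1.83 to 3.66, adjusted p = 9.41e-08, same exact test). H2A.Z was at 15.7% of start peaks and 2.73% of 3′-end peaks, a difference that was not tested. The 152 peaks at ends of unknown strand had H3K27ac at 46.1%, H3K4me2 at 56.6% and H2A.Z at 21.7%. At 3′ ends the shares of H3K4me2 and H2A.Z were 23.6% and 2.73%, against 23.0% and 2.91% of PDX1 peaks away from gene ends, while H3K27ac was at 33.2% against 20.6%; these differences were not tested. H3K27ac without H3K4me2 made up 30 of the 220 peaks at 3′ ends (13.6%) and 32 of the 370 at starts (8.65%).

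At 3′ ends the H3K27ac share also differed between the sides, which was not tested. H3K27ac covered 45 of 103 peaks that lay past the 3′ end (43.7%, Wilson 95% interval 34.5 to 53.3) and 28 of 117 inside the gene (23.9%, 17.1 to 32.4). At starts it covered 129 of 240 upstream (53.8%) and 79 of 130 inside the gene (60.8%). Start peaks at 500 to 750 bp had the highest H3K27ac share (67.8% of 90) and those at 750 to 1000 bp the lowest (46.0% of 100), whereas H2A.Z was most frequent within 250 bp of the start (21.8% of 87). Intervals cover counting error only.

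**Figure D3:**
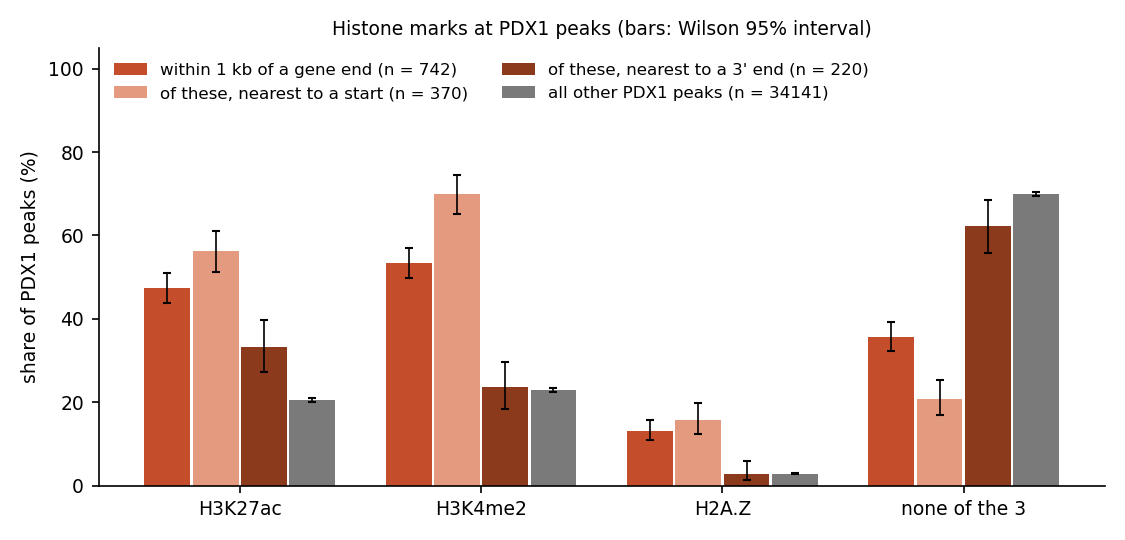
Share of PDX1 peaks (vertical axis, %) that overlap H3K27ac, H3K4me2, H2A.Z or none of the 3, for the 742 gene-end peaks, those nearest to a start (370) or to a 3′ end (220), and the 34141 other PDX1 peaks; error bars are Wilson 95% intervals. Of the groups drawn, start peaks have the highest shares of all 3 marks (the 152 peaks of unknown strand are not drawn as a group), and the shares at 3′ ends for H3K4me2 (23.6%) and H2A.Z (2.73%) lie beside those of the other PDX1 peaks (23.0% and 2.91%).

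Gene-end PDX1 peaks reached high scores less often than the rest. The median of normalized tags was 9.2 in both groups, with an upper quartile of 12.8 at gene ends against 13.8. Scores ran from 13 to 155 with a median of 18, against 13 to 761 with a median of 19, and the median fold over input was 9.73 against 11.5. A score of 30 or more was reached by 132 gene-end peaks (17.8%), against 22.0% of the others and 21.9% of all (odds ratio 0.766, 0.633 to 0.926, adjusted p = 0.0066, Fisher exact test). With a score of 20 or more in place of 30 the odds ratio was 0.861 and the adjusted p 0.0598. In H3K27ac the median score was 20 for gene-end peaks, against 27 for the others, and outside H3K27ac it was 17, against 18. Compared inside and outside H3K27ac separately and then pooled (Mantel-Haenszel, a comparison added after the data were seen), the odds ratio was 0.502 (0.413 to 0.611).

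Among the gene-end peaks themselves, those with higher scores lay more often in acetylated chromatin. A score of 20 or more was found at 197 of 351 peaks in H3K27ac (56.1%) and at 130 of 391 outside it (33.2%), an odds ratio of 2.57 (1.91 to 3.46, adjusted p = 6.64e-10, Fisher exact test). Measures relative to background did not run the same way: in H3K27ac the median fold over input was 9.01, against 10.3 outside it, the median fold over the surrounding 10 kb was 7.41, against 7.59, and the median input tags were 2, against 1. These medians were not tested. The H3K27ac share by score class was 34.7% at 13 to 14, 38.4% at 15 to 19, 54.4% at 20 to 29 and 68.9% at 30 or more. For the other PDX1 peaks it was 6.92%, 12.4%, 24.1% and 40.6% in the same classes. H3K4me2 did not follow the same order at gene ends, with 51.5%, 62.6% and 51.5% in the 3 upper classes.

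**Figure D4:**
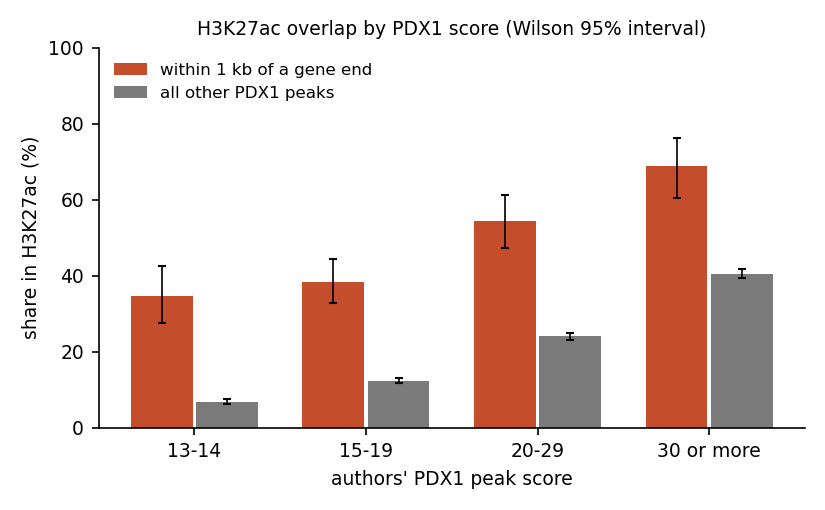
Share of PDX1 peaks in H3K27ac (vertical axis, %) by the authors' PDX1 score class (horizontal axis), for gene-end peaks and for all other PDX1 peaks; error bars are Wilson 95% intervals. In the lowest class the shares are 34.7% and 6.92%, and in the highest 68.9% and 40.6%.

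A related count was made from the side of the marked chromatin, with each interval placed by its own centre. Of the 6853 H3K27ac intervals centred within 1 kb of a gene end, 410 held a PDX1 peak (5.98%), against 6544 of 22882 other intervals (28.6%) and 23.4% of all (odds ratio 0.159, 0.143 to 0.176, adjusted p below 1e-300, Fisher exact test). For H3K4me2, 491 of 9652 gene-end intervals held one (5.09%), against 23.8% of 31488 others and 19.4% of all (odds ratio 0.172, 0.156 to 0.189, adjusted p below 1e-300). Acetylated gene ends were thus mostly without a detectable PDX1 peak, although PDX1 peaks at gene ends were acetylated more often than PDX1 peaks elsewhere. The peaks counted from each side differed in part: of the 419 PDX1 peaks in gene-end H3K27ac intervals, 308 were gene-end peaks (73.5%). Gene-end H3K27ac intervals with PDX1 were wider than those without, with a median of 1968 bp against 1346 bp, and held a median of 189 normalized tags (per 10000000 tags of the library) against 108. In the widest of 5 width classes the share with PDX1 was 12.7% at gene ends and 50.4% elsewhere, and in the narrowest 2.47% and 11%. Pooled over the width classes, the odds ratio was 0.123 for H3K27ac and 0.128 for H3K4me2.

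**Figure D5:**
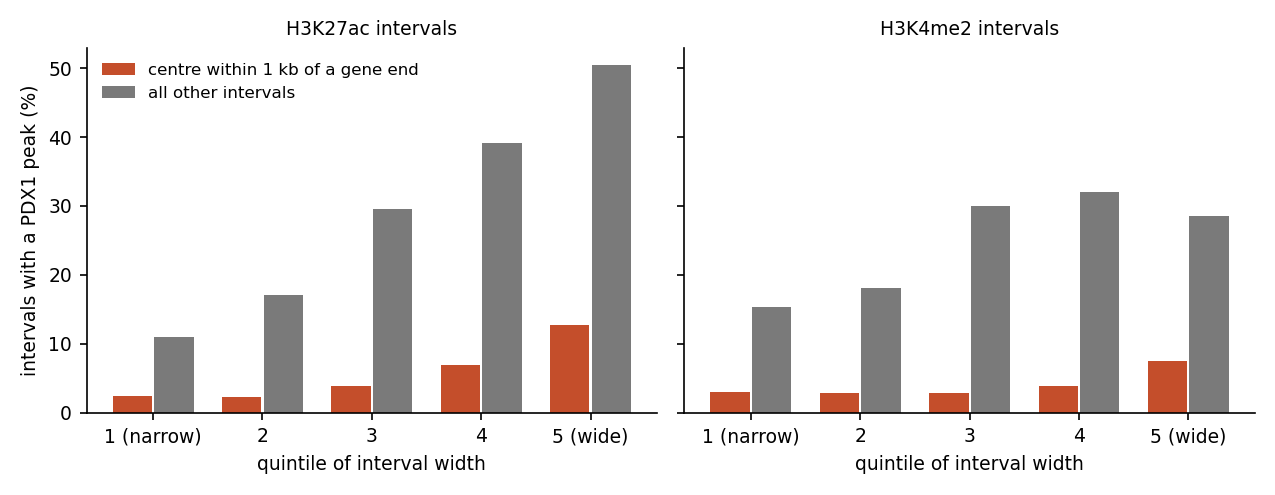
Share of H3K27ac (left) and H3K4me2 (right) intervals that hold a PDX1 peak (vertical axis, %) by quintile of interval width (horizontal axis), for intervals centred within 1 kb of a gene end and for all others. In every quintile the gene-end share is lower; for H3K27ac it runs from 2.36% to 12.7%, against 11% to 50.4% for the other intervals.

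Among hormone and granule genes, 4 of 25 had a gene-end PDX1 peak (Iapp, Scg2, Ins2 and G6pc2), beside 3.53% of all protein-coding genes. All 4 peaks lay in H3K27ac, beside 47.3% of all gene-end peaks. Iapp, which encodes the amyloid peptide co-secreted with insulin, had a score of 94 and 46.0 normalized tags, 9.37 times the input, centred 110 bp upstream of the start (the first stretch printed above) in an H3K27ac interval of 9773 bp with 3217 normalized tags. Scg2, encoding the granule protein secretogranin II, scored 31 at 569 bp inside its start. Ins2, a gene for insulin itself, scored 24 with 12.3 normalized tags at chr7:142679749-142679983, 140 bp outside the gene, where H3K27ac (7460 bp), H3K4me2 and H2A.Z were all present. G6pc2, the islet glucose-6-phosphatase that opposes glucokinase, scored 20 at 441 bp past its 3′ end, in an H3K27ac interval of 16136 bp.

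The other genes of the granule list had their nearest PDX1 peak farther out. The nearest peak to Chga, the granule protein chromogranin A, scored 192 at 5443 bp. The nearest to the second insulin gene Ins1 scored 67 at 11725 bp. Over the list, 15 of 25 genes had a PDX1 peak within 10 kb of an end (60%), against 24.0% of all protein-coding genes. H3K27ac lay at an end of 23 of the 25, beside 39.95% of all genes.

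Among genes of glucose sensing and electrical activity, 2 of 24 had a gene-end peak (8.33%, beside 3.53% of all genes). Besides Adra2a these were Ffar1, the fatty acid receptor that enhances insulin secretion, with a score of 15 at 29 bp past its 3′ end, in H3K27ac and H3K4me2. Of 41 genes of the exocytosis machinery, 2 had one (4.88%), close to the share of all genes. Rab3b, a small GTPase of secretory vesicles, scored 54 at 589 bp past its 3′ end, and Exoc1, a subunit of the exocyst tethering complex, scored 21 at 234 bp upstream of its start. Both lay in H3K27ac.

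Of the 32 beta-cell transcription factors 0 had a gene-end PDX1 peak, beside 3.53% of all genes, a share at which a list of this size holds few or none. H3K27ac lay at an end of 21 of them (65.6%), beside 39.95% of all genes. Their nearest peaks lay just beyond the limit or distally. Pax6 had one at 1476 bp with a score of 23, and Pax4 one at 1827 bp with a score of 45. At the gene of PDX1 itself the nearest was at 2583 bp with a score of 64. At Mafa, which encodes an activator of insulin transcription, it was at 7982 bp with a score of 101, and at Nkx6-1 at 13758 bp with a score of 94. Of the 32 genes, 15 had a peak within 10 kb (46.9%) and 27 within 50 kb (84.4%), against 24.0% and 57.5% of all genes.

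Of 40 genes at diabetes loci, 4 had a gene-end peak (10%, beside 3.53% of all genes). Cdkal1, a tRNA-modifying enzyme whose human gene is a type 2 diabetes locus, scored 21 at 77 bp upstream of its start, in all 3 marks. Prc1 (19), Dgkb (16) and Tle4 (16) had theirs at 3′ ends and outside H3K27ac. Among markers of other pancreatic cells, 1 of 21 had a peak (4.76%), near the share of all genes. This was Gcg, the glucagon gene, with a score of 20 at 497 bp upstream of its start, in H3K4me2 and outside H3K27ac. The lists of core clock genes (0 of 24), genes silenced in mature beta cells (0 of 15), ER folding and stress genes (0 of 22), cell cycle genes (0 of 22), NAD salvage genes and sirtuins (0 of 15) and Hox and ParaHox genes (0 of 50) had none; at 3.53% of all genes, lists of these sizes hold few or none. Of the 13 genes named from these lists, 9 had their best gene-end peak in H3K27ac, beside 47.3% of all gene-end peaks.

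The 20 gene-end peaks with the highest scores ran from 60 to 155, with 6 at starts, 6 at 3′ ends and 8 at ends of unknown strand. H3K27ac covered 12 of them, beside 47.3% of all gene-end peaks and 68.9% of the 132 with a score of 30 or more. None of the 3 marks was at 5 of them, beside 35.7% and 22.0% of the same groups. The highest, with a score of 155 and 78.7 normalized tags, lay 999 bp past the 3′ end of Itga2, which encodes a collagen-binding integrin subunit, in chromatin with no detectable mark. Next came Spocd1 (102), Mpdz (100), a scaffold with many PDZ domains, and Iapp (94).

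Peaks of this group at gene starts were those of Iapp, Gm4791 (91), Myt1l (68), Rcan3 (66), Fam135a (63) and Otop3 (60). Myt1l, a zinc finger factor of neurons, had its peak in an H3K27ac interval of 11930 bp. The peak centre lay 626 bp inside the gene span but 168 bp upstream of an annotated Myt1l transcription start. Rcan3 belongs to the regulators of calcineurin, and its peak lay 584 bp outside the gene in an interval of 7124 bp. Otop3, a proton channel gene, had its peak 31 bp outside the start, with H3K4me2 and without H3K27ac.

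Peaks at 3′ ends were those of Itga2, Gm50595 (90), Uqcc1 (89), an assembly factor of respiratory complex III, Tmem267 (68), Rufy2 (64) and 4430402I18Rik (62). Peaks at ends of unknown strand included, besides Spocd1 and Mpdz, those at Fa2h (86), a fatty acid hydroxylase, Prep (66), a prolyl endopeptidase, Chd7 (62), a chromatin remodeller, and Mapt (60), the microtubule-associated protein tau. Input tags at the 20 peaks were between 0.5 and 8, and a fold over few input tags is imprecise.

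The highest-scoring peaks in all 3 marks scored 28 to 62, and the genes nearest to them included 4430402I18Rik, Tcim (55), Gabarapl2 (52), an autophagy protein, Abcd3 (44), a peroxisomal transporter, Aoc3 (36), Il23a (35), a cytokine subunit, Pafah1b2 (30), Tnfsfm13 (29) and Taf5 (28), a subunit of the general factor TFIID. Those with none of the 3 marks scored 42 to 155. Besides Itga2, Uqcc1, Fa2h and Tmem267, the genes nearest to them included Sema3a (47), an axon guidance protein, the olfactory receptor Olfr1239 (44), the defensin Defb29 (44), the potassium channel Kcnj13 (43) and Slc37a1 (42). High-scoring PDX1 peaks at gene ends were thus also found outside detectable marks.

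Gene-end PDX1 peaks met the clock factors rarely. CLOCK overlapped 7 of the 742 (0.943%), against 0.762% of the other PDX1 peaks and 0.765% of all (odds ratio 1.24, 0.584 to 2.64, adjusted p = 0.52, Fisher exact test). BMAL1 also overlapped 7 (0.943%), against 0.601% of the others and 0.608% of all (odds ratio 1.58, 0.740 to 3.36, adjusted p = 0.248, same exact test). Both intervals include 1, and with 7 peaks each neither a lower nor a higher share was detectable. None of the 14 peaks overlapped both factors.

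The CLOCK overlaps were at Abcd3 (CLOCK score 19), Pes1 (18), Ctbp1 (14), a transcriptional corepressor, Uts2b (14), Trub1 (14), Alkbh5 (13), an RNA demethylase, and Med15 (13), a Mediator subunit. The BMAL1 overlaps were at C77080 (BMAL1 score 24), Flcn (14), which encodes folliculin, Trappc5 (14), Itga2 (13), Cnot6 (13), a deadenylase, Cd96 (13) and Stk11ip (13). A clock-factor score of 13 or 14 is next to the calling threshold, and 11 of the 14 had one. H3K27ac covered 10 of the 14, beside 351 of all 742 gene-end peaks (47.3%). At gene starts were 9 of the 14, beside 370 of the 742.

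A run of aldo-keto reductase genes on chromosome 13 carried several gene-end peaks and was chosen after its values were seen. These enzymes reduce aldehydes and ketones, steroids among them. Between 4048991 and 4609164 (mm10), 560 kb, lie 9 genes of the Akr1 family, of which 6 had a gene-end PDX1 peak, beside 3.53% of all genes. The other 7 Akr1 genes, on other chromosomes, had none. Akr1c19 scored 57, Akr1c12 scored 52, Akr1e1 scored 33 and Akr1c13 scored 32. All 4 were centred 128 to 177 bp from their starts in H3K27ac and H3K4me2, the stretches of Akr1c19, Akr1c12 and Akr1c13 being those printed above. Akr1c6 and Akr1c20 scored 13, the lowest score possible, outside all 3 marks. These genes are paralogs, and the placing of reads between near-identical copies was not tested.

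Other gene families are given beside the 3.53% of all genes. Olfactory receptors had a gene-end peak at 28 of 1110 genes (2.52%), and of the 28 genes 2 had one in marked chromatin. Of all 742 gene-end peaks, 47.3% lay in H3K27ac and 35.7% in none of the 3 marks. This difference was not tested. Vomeronasal receptors had one at 5 of 355 (1.41%), and keratins and keratin-associated proteins at 0 of 112. Zinc finger genes named Zfp had one at 17 of 397 (4.28%), and cytosolic ribosomal protein genes at 6 of 84 (7.14%), with scores from 13 to 21. Genes with predicted symbols (Gm or Rik) had one at 30 of 1750 (1.71%).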

How the data were processed

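Peak lists of 6 ChIP libraries from Beta-TC6 cells were used, 1 library per target, with no replicates. The submitters' processing notes name the aligner Bowtie 1.1.1, the build mm10 and HOMER, whose version was not given in the sources used here. HOMER called peaks per library against a pooled input, per the file headers, at 4 times the input, and for the factors at an FDR of 0.001. For H2A.Z the header and the sample description name different inputs. The normalized tag count is a deposited signal scaled by the authors to 10000000 tags. The deposited score and the deposited ratio (fold over input or surroundings) served to rank, class or filter peaks within their own list. The deposited focus ratio (a fraction) and the authors' p-value of each peak were only looked at, and no test used them.

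Gene spans came from the NCBI RefSeq table for GRCm38.p6, whose coordinates are those of mm10. Exons, introns and UTRs were not determined, and start or 3′ end was assigned where the RefSeq promoter table gives the strand. Both are outer edges of the gene span, so a start can differ from an annotated transcription start. Peaks overlapped when they shared 1 bp. Two-sided Fisher exact tests compared shares, with Woolf 95% intervals, adjusted by Benjamini-Hochberg over 11 tests; p-values under 1e-300 are given as that limit. Wilson intervals cover counting error only. A site below the calling threshold enters no list, so no peak means none detectable at this depth. Overlaps and tests were checked on simulated data.

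Named are the 20 highest-scoring gene-end peaks, all listed genes with one, all that overlap CLOCK or BMAL1, and the 10 highest in all 3 marks and in none, each by its nearest gene; a few genes under this rule are not reported here. The peaks, the 12 gene lists and the tests were chosen with earlier results of these data known, and the motifs and aldo-keto reductases after the data were seen. Software was SciPy 1.17.1, statsmodels 0.14.6, Biopython 1.88, pandas 2.3.3, matplotlib 3.10.9 and NumPy 2.4.6 under Python 3.11.15.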

Additional observations from a re-analysis of the deposited data

How the results depend on the processing

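The 11 tests were repeated under 70 alternatives, 3 of them added after the data were seen (the Mantel-Haenszel comparison of scores over H3K27ac overlap, and 3′-end peaks with no annotated start within 1 kb for both marks). In 67 the direction and the side of the 0.05 threshold were the same. The odds ratio for CLOCK overlap turned below 1 when 50% of the PDX1 peak had to be shared (0.513), and that for BMAL1 when only peaks at 8 times the input were used (0.766); neither passed the threshold in either form. A score of 20 in place of 30 gave an odds ratio of 0.861 for strong gene-end peaks and no longer passed the threshold. The odds ratio over the alternatives ran from 2.82 to 4.17 for H3K27ac, from 2.83 to 4.15 for H3K4me2 and from 3.76 to 6.03 for H2A.Z at gene-end peaks. It ran from 0.123 to 0.230 for PDX1 in gene-end H3K27ac intervals. Why these values moved was not tested. No paired analysis was possible because each target had 1 library. With 1 library per target, differences between cultures or antibodies cannot be told apart from differences between targets, and for 152 peaks the start and the 3′ end could not be told apart.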

Other observations

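Gene-end PDX1 peaks were counted per chromosome against the number of protein-coding genes there. Chromosome 19 had 58.2 and chromosome 12 had 56.0 per 1000 genes, while chromosome 9 had 15.0 and chromosome X 14.5; chromosome Y had 0 PDX1 peaks of any kind. As a share of the PDX1 peaks of the chromosome, gene-end peaks made up 4.86% on chromosome 19 and 4.64% on chromosome 11, against 1.21% on chromosome 14. These are counts of 1 library, and copy number of the line was not measured.

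Cer1, which encodes a secreted antagonist of BMP and Nodal, was chosen after its values were seen as 1 of the 20 genes with 2 gene-end PDX1 peaks. The peak 374 bp past its 3′ end scored 37 and lay in no mark. The peak 61 bp upstream of its start scored 22 and lay in H3K27ac and H3K4me2.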
